A study of Mus musculus with 4 samples.

Results

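Polycomb repressive complex 2 (PRC2) genes were followed here in mouse embryonic stem (ES) cells with and without Snai1. The set consisted of 10 genes: the core subunits Ezh2, Ezh1, Eed and Suz12, and the accessory subunits Jarid2, Mtf2, Phf19, Phf1, Aebp2 and Epop. Members were all probe sets that the platform annotation maps to exactly 1 gene, that gene being one of these, which gave 31 of the 45101 probe sets on the array and 10 of 18193 named genes. Suz12 and Mtf2 had 6 probe sets each, Aebp2 5, Ezh1 4, Jarid2 3, Eed and Phf19 2 each, and Ezh2, Phf1 and Epop 1 each. Probe sets of 1 gene were read on the same RNA samples and are not replicates of each other.

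RNA of 4 samples was hybridised to single-colour Affymetrix arrays, 2 of Snai1 knockout ES cells and 2 of control ES cells. The knockout arrays carry KO in their titles. Control arrays are titled F/F without an explanation. Their genotype field reads control, although knock out also stands in their source name, and all directions below rest on this reading of the labels. Both groups were grown under standard conditions with leukaemia inhibitory factor (LIF), a cytokine that maintains self-renewal, and feeder cells, and received no treatment. The labels are silent on how the allele was made, on whether each line was 1 clone, and on the strain and sex of the cells. Arrays of a group are labelled biological replicates without a statement of what separated them, and the tests below know only the spread between these samples, which may be technical.

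PRC2 methylates lysine 27 of histone H3 and so marks developmental genes that are kept silent in ES cells. Ezh2, or its paralogue Ezh1, is the methyltransferase; Eed binds the mark already made and stimulates the enzyme; Suz12 is the scaffold on which accessory subunits are held. The Polycomb-like proteins Mtf2, Phf19 and Phf1, with Epop, define the variant PRC2.1, whereas Jarid2 and Aebp2 define PRC2.2. Snai1 encodes Snail, a zinc finger repressor that binds E-box sequences and is known for silencing epithelial genes.

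Since the altered gene encodes an E-box binding repressor, the 250 bases before each annotated transcription start were searched for the Snail E-box, CAGGTG on one strand and CACCTG on the other. RefSeq promoter sequences of the build GRCm38.p6 matched 9 of the 10 members (all but Epop) and gave 13 windows, because Aebp2, Jarid2 and Mtf2 have several starts. Windows of 2 genes held the motif, Ezh1 at 77 and 57 bases before the start and Phf1 at 175 bases. Over all 32851 windows of this length, 17.2% held it. Some of the windows are shown as paralogue pairs with and without the motif, the methyltransferases Ezh1 and Ezh2 and the Polycomb-like genes Phf1 and Mtf2 (the first of its starts), 5′ to 3′ on the strand of the gene with the motif in capitals.
Ezh1, chr11:101226464-101226713, - strand: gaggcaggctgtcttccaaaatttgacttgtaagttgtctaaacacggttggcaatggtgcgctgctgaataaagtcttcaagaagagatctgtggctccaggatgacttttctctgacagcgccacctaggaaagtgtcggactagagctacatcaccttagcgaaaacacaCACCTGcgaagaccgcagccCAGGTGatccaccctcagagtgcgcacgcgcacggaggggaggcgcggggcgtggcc
Ezh2, chr6:47595031-47595280, - strand: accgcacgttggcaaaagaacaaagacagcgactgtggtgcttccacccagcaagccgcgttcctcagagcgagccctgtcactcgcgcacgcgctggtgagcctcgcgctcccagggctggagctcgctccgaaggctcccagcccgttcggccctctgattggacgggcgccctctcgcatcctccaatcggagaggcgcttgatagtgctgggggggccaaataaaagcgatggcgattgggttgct
Phf1, chr17:26932877-26933126, + strand: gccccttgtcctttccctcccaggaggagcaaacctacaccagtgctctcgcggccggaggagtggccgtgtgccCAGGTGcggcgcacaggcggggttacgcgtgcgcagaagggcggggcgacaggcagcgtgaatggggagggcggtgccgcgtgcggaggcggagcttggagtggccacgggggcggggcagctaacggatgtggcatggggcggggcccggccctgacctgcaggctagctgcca
Mtf2, chr5:108065424-108065673, + strand: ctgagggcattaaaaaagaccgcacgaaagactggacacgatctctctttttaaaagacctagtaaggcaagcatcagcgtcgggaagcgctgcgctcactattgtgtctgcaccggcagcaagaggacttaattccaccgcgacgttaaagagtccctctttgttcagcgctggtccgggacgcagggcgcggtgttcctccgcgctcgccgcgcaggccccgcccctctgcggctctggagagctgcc
Neither gene with the motif had a probe set past the threshold used below, nor did any matched gene without it. Epop, the only member past that threshold, had no window, so these calls cannot set genes with and without the motif apart. A match of these letters is not evidence of binding. GC content ranged from 46.4% to 75.2% over the 13 windows, against a median of 52.4% over all windows.

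Values are log2 expression levels, with array medians of 4.91 to 4.95. The only probe set of Snai1 read 3.79 and 4.04 in the knockout, against 4.41 and 4.69 in the control, all within the range of 27 probe sets for Bacillus transcripts (2.91 to 4.77), which served as background. It differed by -0.63 ± 0.16 (log2, limma standard error, SE; adjusted p = 0.107), and the sources do not place it inside or outside the deletion, so it cannot serve as a check of the labels. ES cell markers were high on all arrays, with a mean over 14 genes of 11.65 and 11.58 in the knockout, against 11.16 and 11.29 in the control, and 2 of them, Utf1 and Lin28a, rose on the brightest probe set, as did 0.423% of all genes. A second probe set of Lin28a differed by 0.22, with overlap (adjusted p = 0.778). The dimmer probe sets of Utf1 differed by 0.61 (adjusted p = 0.0924) and, in the background range, by 0.18 (adjusted p = 0.512). At an unadjusted p of 0.05, 6 of the 14 ES cell markers were higher and 0 lower (limma), against 8.79% and 14.4% of all genes. The mean of 23 feeder fibroblast markers was 7.86 (replicate 1) and 7.20 (replicate 2) for knockout and 7.98 (replicate 1) and 7.33 (replicate 2) for control, and no feeder marker passed the threshold (limma; 0 higher and 2 lower at an unadjusted p of 0.05). The largest feeder difference was that of Prrx1, a mesenchymal homeobox gene, at 6.83 and 6.09 in the knockout, against 8.02 and 7.39 in the control (-1.24 ± 0.30, SE, adjusted p = 0.0973), and its 5 other probe sets, all dimmer, differed by -1.07 to 0.76 without passing. The mean of 16 primitive endoderm and trophoblast markers lay between 6.24 and 6.60 on the 4 arrays, and none passed (limma; 2 higher and 0 lower at an unadjusted p of 0.05). The largest difference there was that of the keratin gene Krt18 (0.70 ± 0.29, SE, adjusted p = 0.261). Signs of RNA quality differed between the groups. The 3′ probe set for Actb exceeded its 5′ probe set by 1.11 and 0.80 in the knockout, against 3.02 and 2.97 in the control, and for Gapdh by 0.40 and 0.27 in the knockout, against 1.24 and 1.48 in the control. This gap separates the groups completely, so its part in any difference between them cannot be told apart from that of genotype.

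Of the 31 PRC2 probe sets, 1 passed the threshold of an adjusted p of 0.05 (limma, Benjamini-Hochberg over 45037 probe sets), against 0.546% of all probe sets in either direction and 0.44% upward. That probe set belonged to Epop, which rose, and none of the other 9 genes had a probe set that rose or fell past the threshold. The lowest adjusted p among the remaining 30 was 0.0638, for a probe set of Aebp2. At an unadjusted p of 0.05, 14 probe sets differed, 9 lower (11.2% of all probe sets were) and 5 higher (8.34% were). This share was 19.5% over all probe sets in either direction. Among the 21 members with a mean level of 6 or more, called bright below, 12 did so, against 39% of the 16281 probe sets at that level, and 9 of these were lower, against 23.3%. In 21 of the 31 members the arrays of the groups did not overlap, against 49.4% of all probe sets, and among the 21 at a level of 6 or more this held for 16, against 64%. The median difference of the 21 was -0.30, against -0.07 for all probe sets at that level. In bulk RNA, fewer cells of a type and less RNA per cell cannot be told apart.

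**Figure D1:**
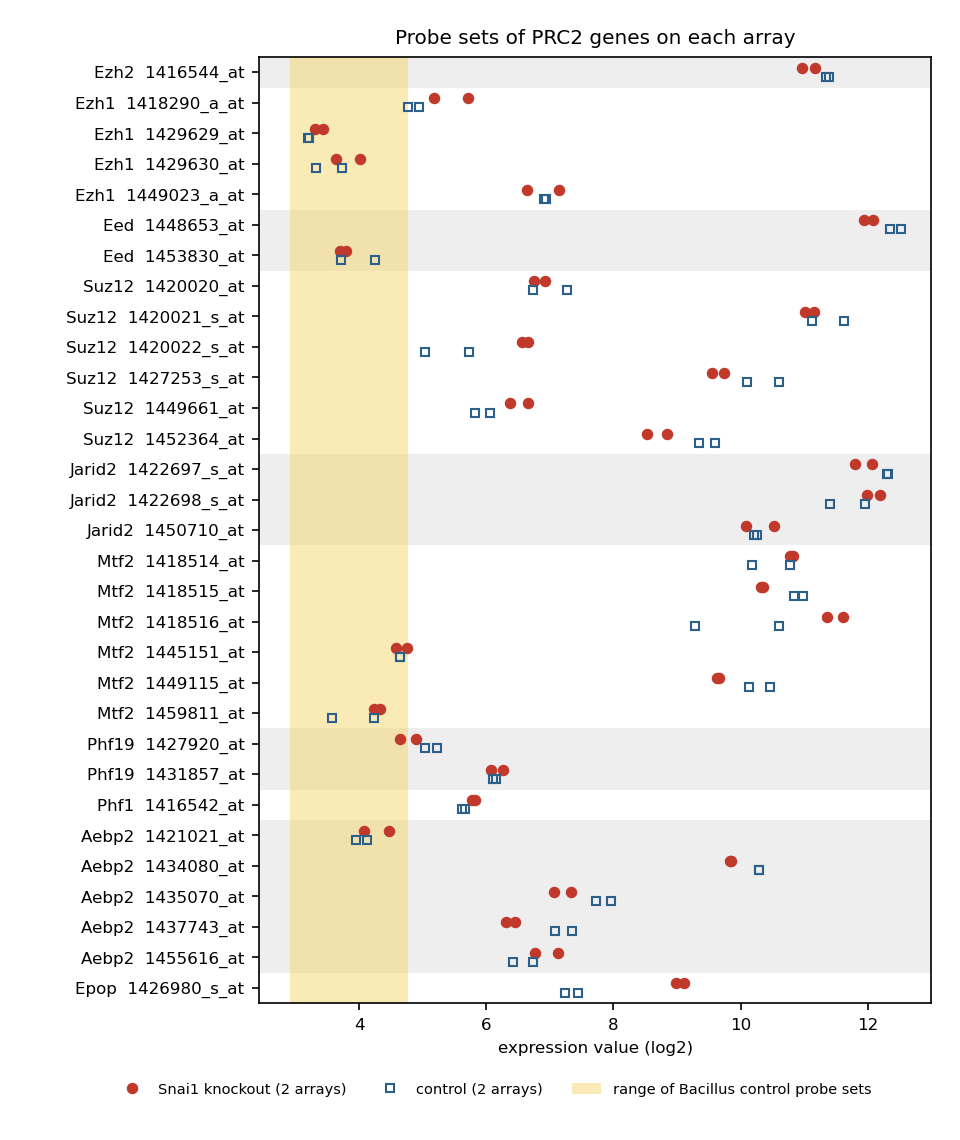
Log2 expression value (horizontal axis) of each of the 31 PRC2 probe sets on the 2 Snai1 knockout arrays (filled circles) and the 2 control arrays (open squares), with the range of Bacillus control probe sets shaded. Epop reads 9.12 and 8.98 in the knockout, against 7.23 and 7.45 in the control; levels of different probe sets are not comparable with each other.

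**Figure D2:**
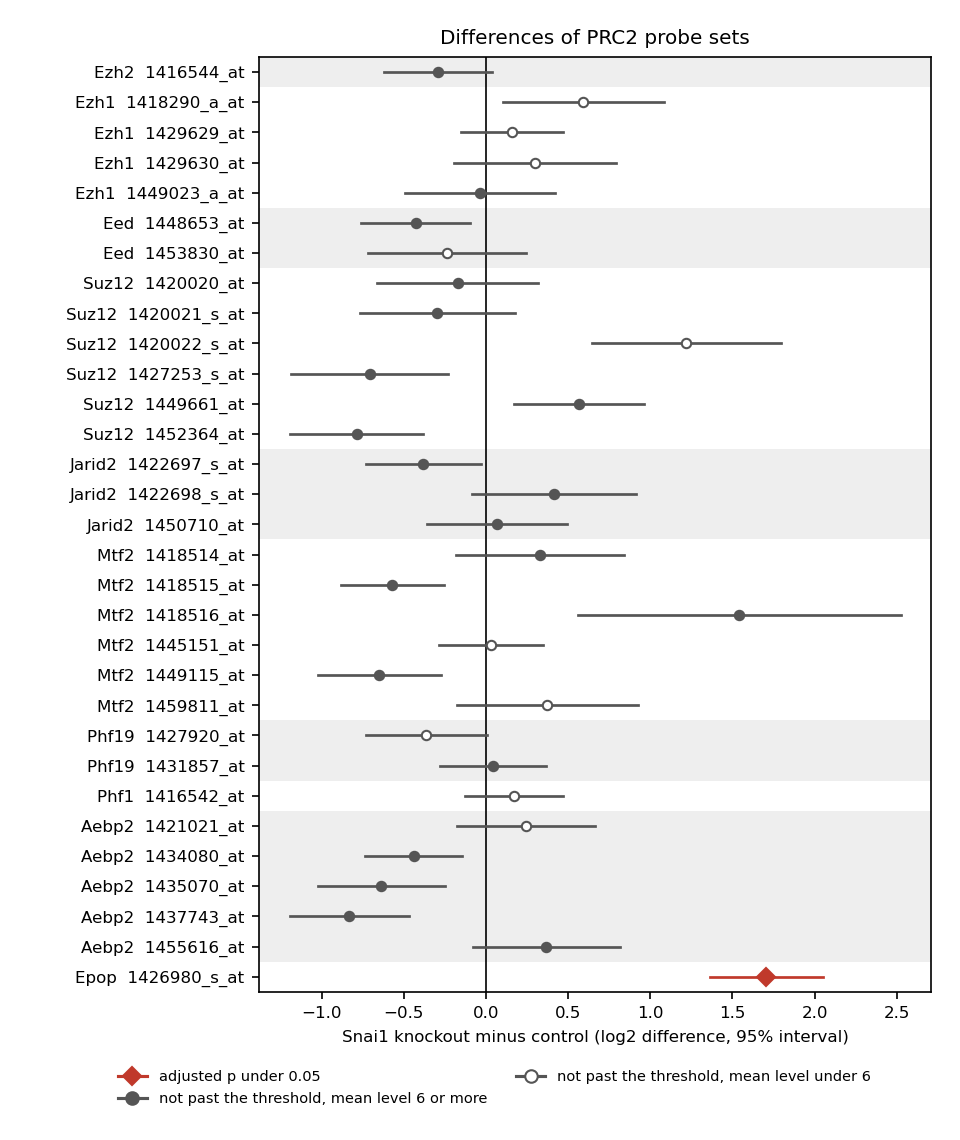
Log2 difference, Snai1 knockout minus control, of each PRC2 probe set with its 95% interval from limma (2 arrays per group). The diamond marks Epop, at 1.71, the only one past the threshold; open circles are probe sets at a mean level under 6.

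Epop encodes a protein that joins PRC2 to the elongins B and C and is abundant in pluripotent cells. Its single probe set, 1426980_s_at, read 9.12 and 8.98 in the knockout, against 7.23 and 7.45 in the control. Both knockout arrays lay above both control arrays. The log2 difference was 1.71 ± 0.14 (SE, 95% interval 1.36 to 2.05), a 3.26-fold rise (adjusted p = 0.0293). The suffix _s_at marks a probe set whose probes match several transcripts. Leaving out any 1 array kept the difference between 1.60 and 1.81, but the adjusted p then lay between 0.0511 and 0.312 and the call was lost each time, the single array of that group being given the spread of the other group. Epop spans 2.33 kb in the genome. Among 4027 probe sets of genes under 5 kb, 1.19% rose past the threshold, against 0.489% of the 34741 probe sets with a known span. With each array's trend over gene span and level removed, Epop differed by 1.47 ± 0.14 (SE, adjusted p = 0.0315). The Actb 3′ to 5′ gap given above was also smaller on both arrays in which Epop was high, and its part in the rise was not tested.

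The methyltransferase genes did not pass. Ezh2, the main enzyme of proliferating cells, had 1 probe set, 1416544_at, at 11.17 and 10.97 in the knockout, against 11.35 and 11.39 in the control. Both knockout arrays were lower, and the log2 difference was -0.30 ± 0.14 (SE, 95% interval -0.62 to 0.03, adjusted p = 0.306). With the trend over gene span and level removed it was -0.09 (adjusted p = 0.734). Ezh1, the less active paralogue that is better known from non-dividing cells, had 4 probe sets. The brightest, 1449023_a_at, read 7.14 and 6.64 in the knockout, against 6.94 and 6.91 in the control, so that the groups overlapped (-0.04 ± 0.19, SE, adjusted p = 0.949). The next, 1418290_a_at, read 5.18 and 5.72 in the knockout, against 4.77 and 4.95 in the control, without overlap (0.59 ± 0.20, SE, adjusted p = 0.184). Its lower control array lay at the edge of the background range, so the size of this difference is uncertain. The other two, 1429629_at and 1429630_at, read between 3.20 and 4.01, within the background range on all arrays. The 95% interval for the brightest probe set of Ezh1 ran from -0.49 to 0.42, so these data do not show that its level is equal in the groups.

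Eed, the subunit that reads the methyl mark, had 1 probe set well above background, 1448653_at, at 11.93 and 12.08 in the knockout, against 12.35 and 12.52 in the control. Both knockout arrays were lower (-0.43 ± 0.14, SE, 95% interval -0.76 to -0.10), without passing the threshold (adjusted p = 0.161). Its other probe set, 1453830_at, stayed in the background range, between 3.70 and 4.25.

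Suz12, the scaffold subunit, gave probe sets that moved apart. Probe set 1452364_at read 8.84 and 8.52 in the knockout, against 9.59 and 9.35 in the control (-0.79 ± 0.17, SE, adjusted p = 0.0782). Its companion of the same source sequence, 1427253_s_at, read 9.73 and 9.54 in the knockout, against 10.60 and 10.09 in the control (-0.71 ± 0.20, SE, adjusted p = 0.125). The knockout arrays were the lower ones in both, without overlap. The brightest, 1420021_s_at, overlapped between the groups, with 11.16 and 11.01 in the knockout, against 11.63 and 11.13 in the control (-0.30 ± 0.19, SE, adjusted p = 0.483). Probe set 1420022_s_at lay the other way, at 6.55 and 6.65 in the knockout, against 5.73 and 5.03 in the control (1.22 ± 0.24, SE, adjusted p = 0.0714). So did 1449661_at, at 6.65 and 6.36 in the knockout, against 6.06 and 5.82 in the control (0.57 ± 0.16, SE, adjusted p = 0.132). In both of these the knockout arrays were higher without overlap. The remaining probe set, 1420020_at, differed by -0.17 ± 0.20 (SE), with overlap. It shares its annotated source sequence with 1420021_s_at and 1420022_s_at, so that probe sets of 1 source sequence also differed in sign. The mean of all 6 differed by -0.03 ± 0.17 (SE, adjusted p = 0.951).

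Among the Polycomb-like genes of PRC2.1, Mtf2 showed the widest spread of differences. Mtf2 binds unmethylated CpG-rich DNA and helps to bring PRC2 to its targets in ES cells. Probe set 1418516_at read 11.36 and 11.61 in the knockout, against 10.61 and 9.28 in the control. The knockout arrays were higher, the control arrays lay 1.32 apart, and the difference of 1.54 ± 0.40 (SE, 95% interval 0.56 to 2.52) did not pass (adjusted p = 0.113). Without control replicate 2 it was 0.88, and without control replicate 1, the array at 10.61, it was 2.20. Probe set 1418515_at read 10.35 and 10.32 in the knockout, against 10.83 and 10.98 in the control (-0.57 ± 0.13, SE, adjusted p = 0.0861). Probe set 1449115_at was lower likewise, at 9.66 and 9.63 in the knockout, against 10.13 and 10.46 in the control (-0.65 ± 0.15, SE, adjusted p = 0.0934). Neither overlapped between the groups. The fourth bright probe set, 1418514_at, read 10.83 and 10.77 in the knockout, against 10.77 and 10.17 in the control (0.33 ± 0.21, SE, adjusted p = 0.471), with the nearest arrays of the groups level. Without control replicate 2 it was 0.032, and without control replicate 1 it was 0.63. All 4 are annotated to 1 source sequence. The brightest by a small margin was 1418516_at, so a summary of Mtf2 by its brightest probe set gave 1.54, whereas the mean of its 6 probe sets gave 0.18 ± 0.15 (SE, adjusted p = 0.579). The other two, 1445151_at and 1459811_at, read between 3.58 and 4.75, within the background range.

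Phf19 and Phf1, the paralogues of Mtf2, gave values not far above the background range, and neither passed the threshold. Phf19 read 6.26 and 6.08 in the knockout, against 6.15 and 6.11 in the control on its brighter probe set, 1431857_at, and the groups overlapped (0.04 ± 0.13, SE, 95% interval -0.28 to 0.36). On 1427920_at it read 4.64 and 4.89 in the knockout, against 5.03 and 5.23 in the control (-0.36 ± 0.15, SE, adjusted p = 0.260), with 1 knockout array in the background range. Phf1 read, on 1416542_at, 5.83 and 5.78 in the knockout, against 5.66 and 5.62 in the control, a difference of 0.17 ± 0.12 (SE, 95% interval -0.13 to 0.47, adjusted p = 0.539).

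Aebp2, a zinc finger protein of PRC2.2 that binds DNA and stimulates the enzyme, was lower on 3 of its 4 bright probe sets, none of them past the threshold. Probe set 1434080_at, the brightest, read 9.85 and 9.84 in the knockout and 10.29 in both control arrays (-0.44 ± 0.12, SE, adjusted p = 0.123). Probe set 1437743_at read 6.46 and 6.31 in the knockout, against 7.08 and 7.35 in the control (-0.83 ± 0.15, SE, 95% interval -1.20 to -0.47, adjusted p = 0.0638). Probe set 1435070_at read 7.06 and 7.34 in the knockout, against 7.72 and 7.95 in the control (-0.64 ± 0.16, SE, adjusted p = 0.103). The groups did not overlap in these 3. On 1455616_at the knockout arrays were higher, at 7.12 and 6.76 against 6.74 and 6.42 in the control (0.37 ± 0.18, SE, adjusted p = 0.352). The fifth, 1421021_at, lay in the background range on all arrays.

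Jarid2, a Jumonji protein without demethylase activity that recruits PRC2.2 and is itself methylated by it, was bright on all 3 of its probe sets, which share a source sequence. Probe set 1422697_s_at read 12.07 and 11.80 in the knockout, against 12.32 and 12.30 in the control (-0.38 ± 0.14, SE, adjusted p = 0.222). Probe set 1422698_s_at read 12.20 and 11.99 in the knockout, against 11.95 and 11.41 in the control (0.41 ± 0.20, SE, adjusted p = 0.346). The groups did not overlap in either, and the directions were opposite. The value of 1422698_s_at was 0.14 without control replicate 2 and 0.68 without control replicate 1. Probe set 1450710_at read 10.52 and 10.08 in the knockout, against 10.21 and 10.25 in the control, with overlap (0.07 ± 0.17, SE).

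Whether the probe sets of a gene differed from each other in their knockout minus control difference was tested directly. For this, limma was run on the difference between 2 probe sets of a gene within each array. It covered all 8143 such pairs in 3534 genes with both at a level of 6 or more. This test was chosen after seeing the data. No pair passed, of all genes or of the PRC2 genes (percent called 0), while 17 of 25 PRC2 pairs and 32.1% of all pairs had an unadjusted p under 0.05. Pairs of 1 gene share probe sets and are not independent. The Actb and Gapdh 3′ to 5′ gaps given above separate the groups, and the positions of probe sets within their transcripts were not known here. The part of these gaps in the differences between probe sets of a gene was not tested. The widest difference between probe sets of a PRC2 gene was that between 1418516_at and 1449115_at of Mtf2, 2.19 ± 0.58 (SE, adjusted p = 0.0989). Probe set 1420022_s_at of Suz12 (difference 1.22), at a mean level of 5.99, was under 6 and not in this test. In Suz12 the widest tested gap was between 1449661_at and 1452364_at, 1.36 ± 0.13 (SE, adjusted p = 0.0654). In Aebp2 it was 1.20 and in Jarid2 0.79 in size. The median gap was 0.74 over the 25 PRC2 pairs and 0.34 over all pairs. Without control replicate 1, 9 of the PRC2 pairs and 1180 of all pairs passed, and with both probe sets at a level of 8 or more 0 PRC2 pairs and 401 of all pairs passed. A level of 8 left out all Aebp2 pairs and 1449661_at of Suz12. The counts at that level are therefore not shares of the 25 and 8143 pairs. All 4 PRC2 genes with at least 3 bright probe sets had some above and some below 0, as did 59.97% of 1239 genes with that many. In Suz12 and Mtf2 such opposite differences each reached an unadjusted p of 0.05, as they did in 12.8% of those genes.

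**Figure D3:**
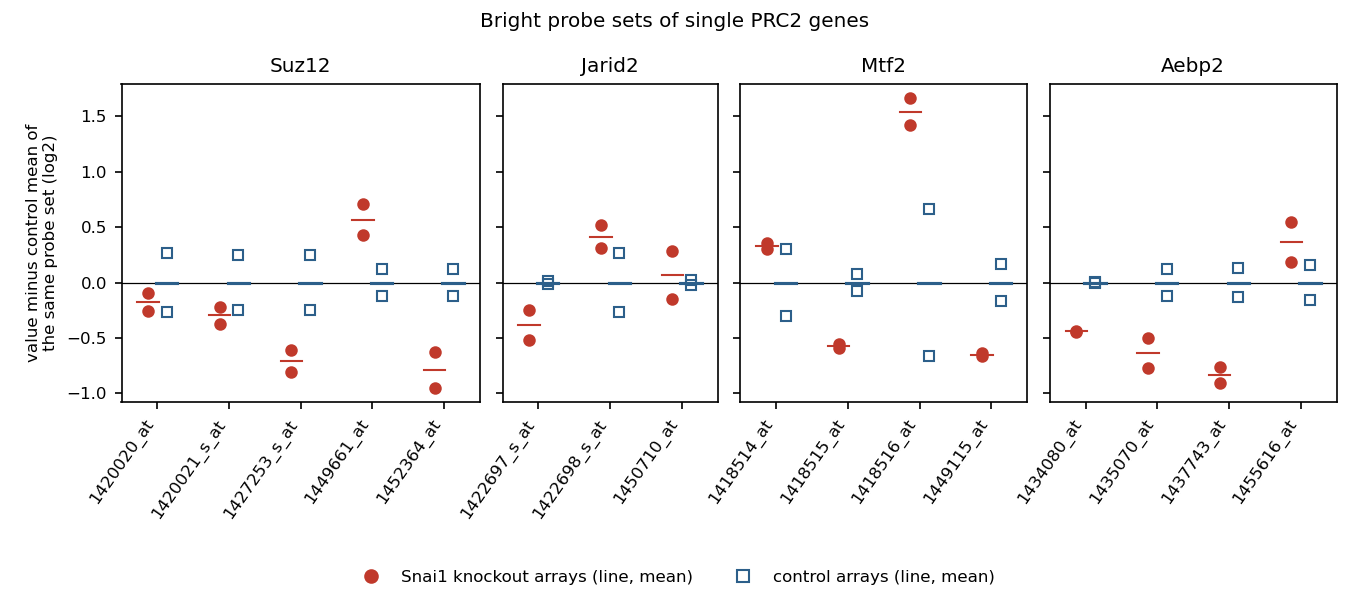
Value on each array minus the control mean of the same probe set (log2, vertical axis) for the probe sets at a mean level of 6 or more of Suz12, Jarid2, Mtf2 and Aebp2, with filled circles for Snai1 knockout arrays, open squares for control arrays and short lines for the means. In each gene probe sets lie on both sides of 0, and for 1418516_at of Mtf2 the control arrays lie 1.32 apart.

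Genes that work with PRC2 were read from their brightest probe set, of which 0.5% passed the threshold over 18193 genes. At an unadjusted p of 0.05, 8.79% of all genes were higher and 14.4% lower, 23.2% in all, and the counts of that kind below are to be read against these shares. The histone-binding subunits Rbbp4 and Rbbp7 complete the core and were named after their values were seen. Rbbp7 read 12.98 and 12.85 in the knockout, against 13.24 and 13.16 in the control (-0.28 ± 0.13, SE, adjusted p = 0.301). Rbbp4 averaged 13.06 in the knockout and 13.34 in the control on its brightest probe set (-0.27 ± 0.13, SE, adjusted p = 0.311), while its 3 other probe sets differed by -1.11, 1.37 and 1.29 (adjusted p = 0.0637, 0.141 and 0.0837). Elob, one of the elongins that Epop binds and likewise named after its values were seen, read 12.70 and 12.92 in the knockout, against 12.23 and 12.31 in the control (0.54 ± 0.14, SE, adjusted p = 0.107), and its other probe set differed by -0.04. Eloc, the other elongin, also named after its values were seen, had 4 probe sets, which differed by 0.22, -0.71, -0.37 and 0.06 (adjusted p = 0.673, 0.0972, 0.251 and 0.944). In the list of 9 other PRC2 subunits and partners none passed (limma; at an unadjusted p of 0.05, 1 higher and 2 lower), with a median difference of -0.23 against -0.02 for all genes. The largest was that of Lcorl, a PRC2.1 partner, at 6.22 and 6.37 in the knockout, against 6.93 and 7.09 in the control (-0.72 ± 0.14, SE, adjusted p = 0.0682). The other probe sets of Lcorl, all dimmer, differed by -0.38 to 0.16 (adjusted p = 0.435 to 0.921).

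PRC1, the companion complex that ubiquitinates histone H2A, had 36 measured members of 39 listed, of which 1 fell and none rose. The one that fell was Bmi1, a subunit that supports the ubiquitin ligase and is known for self-renewal of adult stem cells. Bmi1 read 6.80 and 6.88 in the knockout, against 7.80 and 7.79 in the control (-0.96 ± 0.12, SE, adjusted p = 0.0483). The second probe set of Bmi1 read 5.21 and 4.75 in the knockout, against 5.98 and 6.13 in the control (-1.07 ± 0.18, SE, adjusted p = 0.0618). Both probe sets were thus lower without overlap, but the knockout array at 4.75 lay in the background range, which leaves the size of the second difference uncertain. The call of Bmi1 was lost with an intensity trend in the variance and whenever 1 array was omitted. Over the whole PRC1 list the median was -0.11, and at an unadjusted p of 0.05 there were 5 higher and 10 lower members. The same arrays differed in the Actb gap, and its part was not tested.

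Enzymes that remove the Polycomb marks or place opposing ones were also read. Among 15 measured H3K27 demethylases and H2A deubiquitinases none passed (3 higher and 4 lower at an unadjusted p of 0.05), with a median of 0.06. The largest difference was that of Uty, the Y-linked relative of the demethylase gene Kdm6a. Its brightest probe set read 5.997 and 6.31 in the knockout, against 7.10 and 7.59 in the control (-1.19 ± 0.21, SE, adjusted p = 0.0621). A dimmer one differed by -0.81 (adjusted p = 0.111), with its knockout arrays in the background range. The remaining probe sets of Uty, in the background range on all arrays, differed by 0.03 and -0.10. Among 19 genes of H3K4 and H3K36 methyltransferase complexes none passed on the brightest probe set (5 higher and 4 lower at an unadjusted p of 0.05), with a median of -0.06. Men1, which encodes menin, a subunit of H3K4 methyltransferase complexes, read 8.23 and 7.95 in the knockout, against 7.13 and 7.18 in the control (0.93 ± 0.15, SE, adjusted p = 0.0564). A dimmer probe set of Men1, at 5.76 and 5.99 in the knockout, passed (adjusted p = 0.0470), but both its control arrays, at 4.74 and 4.63, lay in the background range, so no size is given for it, and the third differed by 0.06.

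Developmental regulators that PRC2 is known to bind in ES cells, among them Hox, Pax, Gata and Tbx genes, had no member that rose or fell past the threshold. Of 68 measured genes, 29 lay within the background range on all arrays (limma; 4 higher and 5 lower at an unadjusted p of 0.05). The mean level of the list was 4.86 and 4.83 in the knockout, against 4.88 and 4.82 in the control, and its median difference was 0.04. The largest difference was that of Hoxd13, a limb patterning gene, at 4.52 and 4.76 in the knockout, within the background range, and 5.22 and 5.82 in the control (-0.88 ± 0.22, SE, adjusted p = 0.106). Its other probe set differed by -0.0040 (adjusted p = 0.994). Adjusted over the brightest probe set of each gene instead, 1 gene passed among these developmental genes, 1 among the other PRC2 partners, 2 in PRC1, 1 among the demethylases and deubiquitinases and 2 among the H3K4 and H3K36 methyltransferase genes, against 4.14% of all genes.

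**Figure D4:**
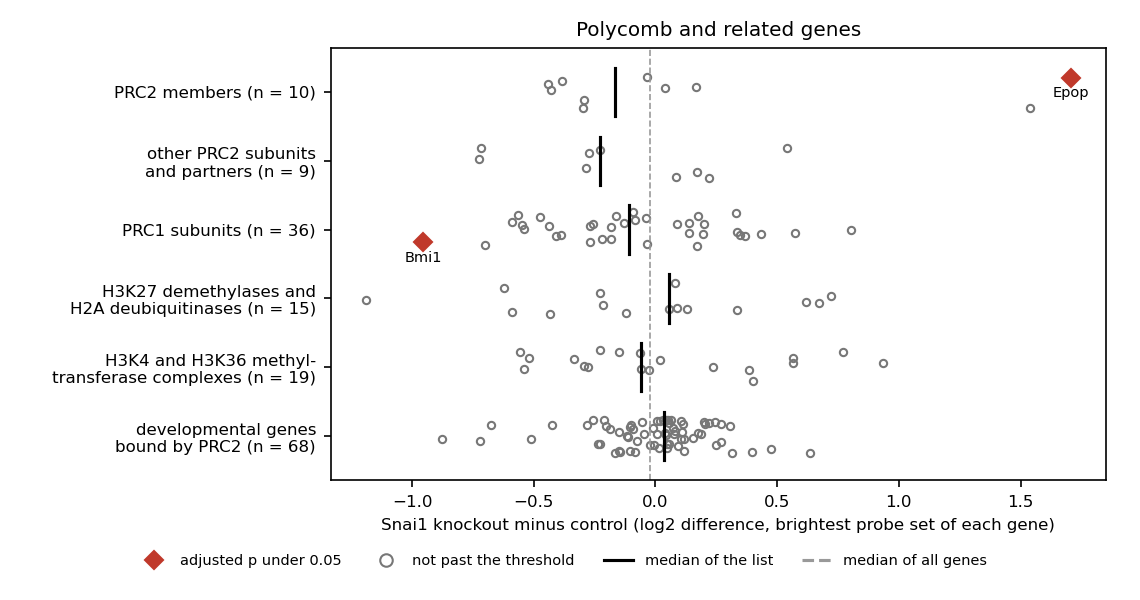
Log2 difference, Snai1 knockout minus control, of the brightest probe set of each gene (points) in 6 lists, with the median of each list (solid lines) and of all genes (dashed line). Epop at 1.71 and Bmi1 at -0.96 are the genes past the threshold (diamonds), and Mtf2 stands at 1.54 by its brightest probe set.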

How the data were processed

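The authors deposited log2 expression values per probe set for the 4 arrays. Per the submitters' processing notes RMA and limma were used, without versions, order or settings. Per the labels' protocols, RNA was purified on columns and labelled from the 3′ end. RMA as usually run sets the distributions of probe intensities, not of the summarised probe set values, equal across arrays. A change common to most genes would therefore largely not show. No genome build was named. Depth is not defined for arrays, and their number limits the precision.

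Values were used as deposited, without the 64 Affymetrix controls. Gene names came from GEO's platform annotation (34945 with 1 gene, 932 with several, 9160 with none), and gene IDs checked against RefSeq changed 0 symbols. Knockout was compared with control by lmFit and eBayes of limma 3.58.1 (R 4.3.3) on all 45037 probe sets, two-sided, adjusted over all of them by Benjamini-Hochberg, with 2 residual and 4.11 prior degrees of freedom. SE is limma's moderated standard error. The rule for named genes took every member probe set and, of each other list, up to 4 genes past the threshold, or the 1 with the largest difference. The members and lists were chosen with earlier results of these data known. Alternatives covered the variance prior, scaling, a level filter, summaries per gene, a trend with gene span (loess, span 0.3), a replicate block and the omission of single arrays.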

Additional observations from a re-analysis of the deposited data

How the results depend on the processing

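Epop passed in the main comparison and in each of the 10 alternatives that kept all 4 arrays, with differences of 1.47 to 1.75 and adjusted p of 0.00718 to 0.0315, and in none of the 4 that left out 1 array. The number of probe sets past the threshold was 246 (198 higher, 48 lower), 568 (407 and 161) with a further quantile normalization, 507 (374 and 133) at a mean level of 6 or more, and 518 (363 and 155) with the span trend removed. It was 754 genes (360 and 394) with the brightest probe set of each gene, and 0 to 173 with 1 array left out (0 without either knockout array or control replicate 2, with 6960, 5187 and 6686 at an unadjusted p of 0.05). PRC2 probe sets past it numbered 1, in 1 gene, and 0 to 1 in 0 to 1 genes with 1 array left out. That 1 was Mtf2, without control replicate 1. The 5 other Polycomb lists together held 1 gene past the threshold, against 0 with an intensity trend, 2 with quantile normalization, 3 at a level of 6 or more, 7 with the brightest probe set per gene, 2 with the mean of probe sets, 7 with the replicate block and 0 with any 1 array left out. With the replicate block, 1536 probe sets passed, and 4 PRC2 probe sets in 3 genes: that of Epop, 1420022_s_at (adjusted p = 0.0428) and 1452364_at (0.0438) of Suz12, and 1437743_at of Aebp2 (0.0488). Deviations of same-numbered arrays correlated at 0.11 over all probe sets and 0.16 over bright ones, and the labels do not say what a number shares. The feeder marker mean was lower in replicate 2 than in replicate 1 in both groups (7.20 against 7.86 in the knockout, 7.33 against 7.98 in the control). The primitive endoderm and trophoblast mean was lower likewise, whereas the ES cell marker mean moved in opposite directions in the groups. Within-gene pairs past the threshold numbered 0, against 401 at a level of 8 or more, and 0 to 1180 for all genes and 0 to 9 for the PRC2 genes with 1 array left out. As a mean of probe sets, the sign turned for Ezh1 (0.25), Jarid2 (0.033) and Phf19 (-0.16), none past the threshold. With the span trend removed 1449023_a_at of Ezh1 turned to 0.022. With 1 array left out, probe sets that had not passed changed sign within these ranges: 1431857_at of Phf19 -0.051 to 0.13, 1450710_at of Jarid2 -0.15 to 0.29, 1445151_at of Mtf2 -0.050 to 0.11, 1449023_a_at of Ezh1 -0.28 to 0.21, 1420020_at of Suz12 -0.44 to 0.10, and 1453830_at of Eed -0.51 to 0.030. Apart from the array left out or the features tested, the cause of these changes was not tested. Probe sets in the background range limit what can be said of some probe sets of Ezh1, Eed, Mtf2, Aebp2 and Phf19 and of 29 of the 68 developmental genes.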
